A study of Drosophila melanogaster with 20 samples.

Results

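The oxidative phosphorylation genes are described here across fly genotypes and sexes. They were taken as every gene of the deposited expression table whose KEGG annotation contains pathway 00190, and 144 of its 17276 genes met that rule. RNA had been taken from whole adult flies aged 1 to 2 days and kept at 25 °C, in 5 groups. Mettl3 males carried the allele Mettl3SK2 over a deficiency (Df) that removes the gene, so these flies also have a single copy of the neighbouring genes under that deletion. Mettl14 males carried Mettl14SK1, and Hakai males were labelled Hakai4, which was read as the HakaiSH4 frameshift allele of the study. Mettl3, Mettl14 and Hakai are parts of the writer complex that places N6-methyladenosine (m6A) on mRNA. The yw females and yw males, of the strain used as the control, carried none of these alleles. Each group had 2 input libraries of poly(A) RNA and 2 libraries immunoprecipitated with an m6A antibody. The labels do not say that the libraries of a group came from separate flies, so p-values measure only the spread between these libraries.

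Oxidative phosphorylation passes electrons from NADH (complex I) and succinate (complex II) through complex III to oxygen at complex IV, and the proton gradient built on the way drives ATP synthase (complex V). Most subunits are encoded in the nucleus and the core of complexes I, III, IV and V partly by the mitochondrial genome. KEGG also places the vacuolar ATPase in this pathway, a proton pump of endomembranes that consumes ATP. Drosophila carries extra nuclear copies of many of these subunits, and many such copies are known for expression in the testis, while flight muscle is known for a very high demand on the main copies. Among the 144 genes, 13 were mitochondrially encoded, 88 were main nuclear genes and 43 were paralogs of 30 different subunits. The main genes comprised 35 of complex I, 4 of complex II, 8 of complex III, 9 of complex IV, 13 of complex V, 14 of the vacuolar ATPase, 4 assembly factors of complex IV and Nurf-38, which encodes an inorganic pyrophosphatase. Of the 43 paralogs, 19 were copies of vacuolar ATPase subunits and 3 lay on the X chromosome.

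Levels are in FPKM, the fragments per kilobase of transcript scaled to the mapped fragments of the library, so genes can be compared per length. The 144 genes made up 11.8% to 16.9% of the summed FPKM of a library. The mutated genes followed the labels. Mettl3 was at 2.43 and 2.10 FPKM in Mettl3 males, against 5.23 and 5.17 FPKM in yw males. Mettl14 was at 1.77 and 2.02 FPKM in Mettl14 males, against 4.19 and 4.25 FPKM in yw males. Hakai was at 0.767 and 1.22 FPKM in Hakai males, against 2.47 and 3.36 FPKM in yw males.

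The libraries of a group did not all lie close together, and this touches every comparison with yw males. In Mettl14, Hakai and yw males the library numbered 2 had higher levels of the main nuclear genes than the library numbered 1, by a median of 0.37, 0.44 and 0.21 on the log2(FPKM + 1) scale. The difference went that way in 75, 78 and 68 of the 88 genes. In Mettl3 males and yw females the libraries nearly coincided, with medians of -0.01 and -0.01. The main genes of each group are therefore also set against each yw male library.

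**Figure D1:**
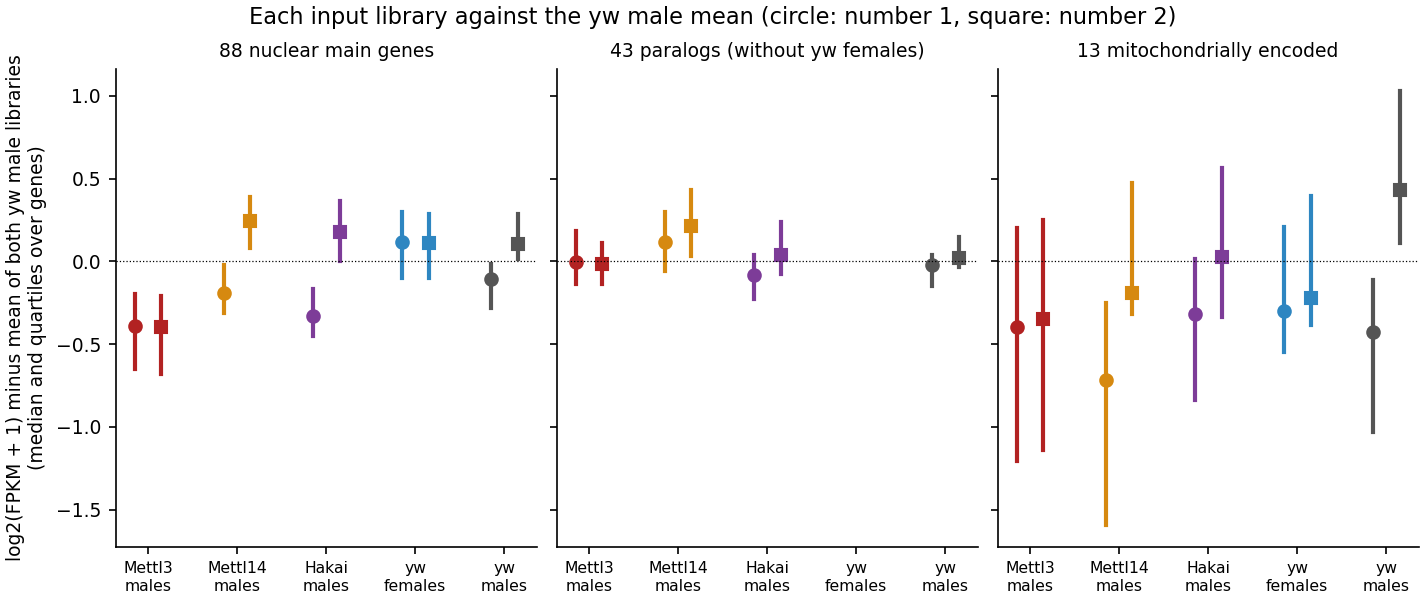
Median (symbol) and quartiles (line) over genes of log2(FPKM + 1) in each input library minus the mean of both yw male libraries, for the main nuclear genes, the paralogs (yw females are off this scale and not drawn) and the mitochondrially encoded genes; circles are libraries numbered 1 and squares libraries numbered 2. Both Mettl3 male libraries lie at -0.39 for the main genes, below both yw male libraries at -0.11 and 0.11, while the Mettl14 and Hakai male libraries lie on either side of 0.

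The comparison of yw females with yw males asks how the pathway differs by sex. The main nuclear genes differed little between the sexes next to the paralogs, most of which were near the floor of the table in females. A gene was called when limma gave an unadjusted p under 0.05 with a change of at least 2-fold on log2(FPKM + 1), and those under 0.05 after Benjamini-Hochberg adjustment were counted separately. Of 143 members tested, 35 were called lower in yw females (22.9% of all tested genes) and 0 were called higher (9.2% of all tested genes). At the adjusted p, 38 were lower and 17 higher, against 31.4% and 27.4% of all tested genes, and 22 were higher at an unadjusted p under 0.05 (30.5% of all tested genes). The member left out, Vha16-2, had a mean FPKM under 1 in both fits.

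The 35 genes called lower were 34 paralogs and mt:ATPase8. They included all 7 paralogs of complex IV, all 4 of complex III, all 3 of complex II, all 3 of complex V, 6 of 7 of complex I and 11 of the 18 vacuolar ATPase paralogs tested. The main genes had 0 of 88 called in either direction. The paralogs called lower stood for 29 different subunits. Their mean level had a median of 0.109 FPKM in yw females, against 24.1 FPKM in yw males. In 29 of the 34, both yw female libraries were under 1 FPKM, and the highest value of any of the 34 in a female library was 2.05 FPKM. A test needed a mean of 1 FPKM over the yw libraries. Those 29 reached it only through yw males, so the direction of their calls was fixed by that filter.

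The largest change among the called paralogs was in complex IV, cytochrome c oxidase. CG31644, a copy of cype, was at 0.116 and 0.407 FPKM in yw females, against 171 and 115 FPKM in yw males, a log2 fold change of -6.82 ± 0.24 (SE). COX4L was at 0.982 and 1.07 FPKM in yw females, against 155 and 148 FPKM in yw males, a log2 fold change of -6.23 ± 0.08. COX7AL was at 0.208 and 0.268 FPKM in yw females, against 83.3 and 91.5 FPKM in yw males, a log2 fold change of -6.16 ± 0.09. For CG31644 and COX7AL, under 1 FPKM in both female libraries, the direction was fixed by the filter, so their tests add nothing to these values. For COX4L the sexes did not overlap, and limma's adjusted p was at most 5.3e-05. Their main counterparts did not share the pattern. COX4 was at 361 and 354 FPKM in yw females, between the 309 and 618 FPKM of the yw male libraries. COX7A was higher in yw females, at 302 and 310 FPKM, against 213 and 205 FPKM in yw males (log2 fold change 0.55, limma adjusted p = 0.0092).

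Copies of other complexes followed the same order. CG6629, a copy of SdhC of complex II (succinate dehydrogenase), was at 0.0794 and 0.154 FPKM in yw females, against 66.2 and 67.6 FPKM in yw males. UQCR-14L of complex III was at 0.133 and 0.0294 FPKM in yw females, against 39.9 and 54.2 FPKM in yw males. ND-B14.5AL of complex I was at 0.0636 and 0.0273 FPKM in yw females, against 33.7 and 38.1 FPKM in yw males. For Vha68-3, a copy of the catalytic subunit of the vacuolar ATPase, the values were 0.323 and 0.301 FPKM in yw females, against 46.6 and 47.2 FPKM in yw males. The smallest changes among the called paralogs were those of Vha16-4 and ATPsynepsilonL, with log2 fold changes of -1.36 ± 0.19 and -1.65 ± 0.09. Both were under 1 FPKM in both female libraries, so the direction of their calls was also fixed by the filter. CG15719, Vha16-3 and ND-20L were listed at 0 in both female libraries.

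In yw males the called paralogs were minor next to their main counterparts. The ratio of mean FPKM, paralog over main gene, had a median of 8.28% and lay between 0.438% for Vha16-4 and 57.3% for Vha100-3. For COX4L the ratio was 0.287% in yw females and 32.6% in yw males. In whole flies a lower level of a gene in a group can mean fewer cells of a type or less RNA per cell, and these cannot be told apart. The 10 testis markers summed to 5.20 and 5.48 FPKM in yw females, against 2886 and 3168 FPKM in yw males. All 10 were lower in both female libraries, and 0 of 10 were listed at 0 in both, while aly was listed at 0 in yw female library 1. The 10 accessory gland markers summed to 16.1 and 15.4 FPKM in yw females, against 6503 and 3299 FPKM in yw males. Their part in the result was not tested.

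**Figure D2:**
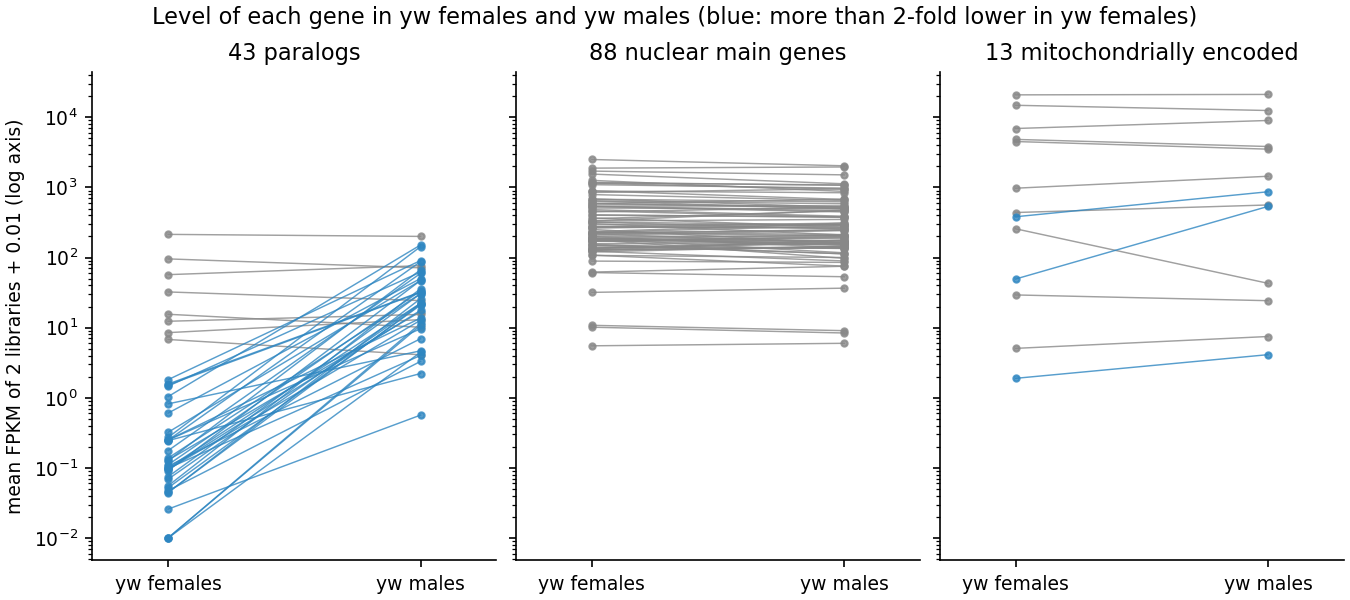
Mean FPKM of the 2 input libraries, plus 0.01, on a log axis for each gene in yw females and yw males, joined by a line, for the 43 paralogs, the 88 main nuclear genes and the 13 mitochondrially encoded genes; blue marks genes more than 2-fold lower in yw females. Most paralog lines rise steeply toward yw males, with medians of 0.109 and 24.1 FPKM in females and males for the 34 called, while the lines of the main genes stay nearly level.

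A few paralogs were not restricted to males. Vha100-2, a copy of the membrane subunit a of the vacuolar ATPase, was at 96 and 95.2 FPKM in yw females, against 56.3 and 86.3 FPKM in yw males, which did not pass either test. Its mean level was 300% of that of Vha100-1 in yw females and 195% in yw males. Vha100-1, classed here as the main gene, was thus the less abundant of the pair. Vha100-4 was at 6.78 and 6.76 FPKM in yw females, against 3.55 and 4.64 FPKM in yw males, and Vha100-5 was at 15.58 and 15.42 FPKM in yw females, against 8.74 and 11.5 FPKM in yw males. Both were higher in females at the adjusted p (limma adjusted p = 0.018 and 0.028). VhaM9.7-a, Vha68-1 and Vha36-3 were lower by less than 2-fold, with log2 fold changes of -0.57, -0.42 and -0.30 and limma adjusted p of 0.0081, 0.014 and 0.032. VhaM9.7-c and CG40472 passed neither test, at log2 fold changes of 0.40 and 0.11. CG40472 carries the same KEGG ortholog entry as ND-AGGG, so reads of these near copies may be split between them.

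Most main vacuolar ATPase genes were higher in yw females. At the adjusted p, 9 of the 14 were higher (27.4% of all tested genes) and 0 lower (31.4% of all tested genes), with a median log2 fold change of 0.43, and 6 of the other 74 main genes were higher and 0 lower, with a median of 0.08. The median over all tested genes was -0.03. Vha100-1 was below both yw male libraries without passing a test, at 31.8 and 31.9 FPKM in yw females, against 33.4 and 39.7 FPKM in yw males. Vha36-1, a stalk subunit, was at 186 and 186 FPKM in yw females, against 116 and 117 FPKM in yw males (log2 fold change 0.67 ± 0.09, limma adjusted p = 0.0036). Vha68-2, the catalytic subunit, was at 254 and 249 FPKM in yw females, against 168 and 150 FPKM in yw males (log2 fold change 0.66 ± 0.11). Neither overlapped between the sexes. Nurf-38 had the largest rise among the main genes, at 184 and 176 FPKM in yw females, against 98.2 and 96.6 FPKM in yw males (log2 fold change 0.88 ± 0.09).

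The direction of the small differences between the sexes rested on the scaling. With the medians of all libraries set equal, the median log2 fold change of all tested genes was 0.34 in place of -0.03, 53 members were higher and 35 lower at the adjusted p in place of 17 and 38, and the members' median was 0.31 in place of -0.06. In place of 55 members past the adjusted p there were 36 and 37 without yw female library 1 or 2, and 111 and 110 without yw male library 1 or 2. With equal medians 33 paralogs were called lower in place of 34. At the adjusted p, 47 of the 88 main genes were then higher in place of 15, with a median of 0.48 in place of 0.11. These were 12 of the 14 vacuolar ATPase genes in place of 9 and 35 of the other 74 in place of 6. Of all 12778 tested genes, 6108 were higher in place of 3496. Against yw male library 1 alone the median difference of the main genes was 0.23 and 0.21 for the yw female libraries, and against yw male library 2 it was -0.0034 and 0.0014.

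Some mitochondrially encoded genes were the most abundant members, while others, such as mt:ND6 at 0.92 and 7.29 FPKM in yw males, were low. The subunit mt:CoIII of complex IV was at 20452 and 21332 FPKM in yw females, against 19553 and 22812 FPKM in yw males, and mt:CoI was at 14384 and 15273 FPKM in yw females, against 11956 and 13033 FPKM in yw males. The gene mt:Cyt-b of complex III was at 6576 and 7258 FPKM in yw females, against 6479 and 11531 FPKM in yw males. None of these 3 passed a test between the sexes. The gene mt:ATPase8 was called lower in yw females, at 42.4 and 56.3 FPKM, against 186 and 885 FPKM in yw males (log2 fold change -3.03 ± 0.80). The gene mt:ATPase6 was at 288 and 226 FPKM in yw females, against 1.39 and 84.3 FPKM in yw males, and was not called. The reading frames of mt:ATPase8 and mt:ATPase6 overlap, as do those of mt:ND4L and mt:ND4, so their values are uncertain. The yw male library 2 was higher than library 1 in 12 of the 13 genes, by a median of 0.86 on the log2 scale.

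For each mutant, the question was whether the RNA of the pathway changed when a part of the m6A writer complex was lost. In Mettl3 males the main nuclear genes stood lower than in yw males. Both Mettl3 male libraries were below both yw male libraries in 75 of the 88 main genes (29.2% of all tested genes) and above both in 4 (36.3% of all tested genes). The median log2 fold change was -0.38 for the main genes, -0.51 for complex I, -0.44 for complex II, -0.34 for complex III, -0.50 for complex IV, -0.56 for complex V and -0.23 for the vacuolar ATPase. The median over all tested genes was 0.03. The paralogs as a class did not share this, with a median of 0.01 and 14 of 43 above and 11 below both yw male libraries. Most of them are the copies near the floor in females. Of those not restricted to males, Vha100-2, Vha100-4, Vha100-5, Vha68-1 and Vha36-3 were below both yw male libraries. VhaM9.7-a and VhaM9.7-c were above both, and CG40472 overlapped. With equal medians of all libraries the main genes stayed at -0.43 and the paralogs were at -0.03.

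Few single genes of Mettl3 males passed a test. Of the 143 members, 7 were called lower (1.32% of all tested genes) and 0 higher (2.94% of all tested genes). At the adjusted p 4 were lower (3.01% of all tested genes) and 0 higher (5.77% of all tested genes), while an unadjusted p under 0.05 was reached by 30 that were lower and 4 that were higher (10.2% and 16% of all tested genes). ND-15, an accessory subunit of complex I, was at 107 and 96.2 FPKM in Mettl3 males, against 195 and 229 FPKM in yw males (log2 fold change -1.05 ± 0.19, limma adjusted p = 0.021). It was the only member past both thresholds. ATPsynCF6, coupling factor 6 of ATP synthase, was at 388 and 518 FPKM in Mettl3 males, against 899 and 780 FPKM in yw males (log2 fold change -0.90 ± 0.19, limma adjusted p = 0.034). VhaPPA1-1, a proteolipid of the vacuolar ATPase, was at 65.3 and 66.5 FPKM in Mettl3 males, against 115 and 111 FPKM in yw males (log2 fold change -0.77 ± 0.12, limma adjusted p = 0.012). The paralog VhaAC39-2 was at 2.13 and 1.97 FPKM in Mettl3 males, against 3.98 and 4.03 FPKM in yw males (log2 fold change -0.71 ± 0.10, limma adjusted p = 0.0087). The groups did not overlap for these 4 genes. Past the adjusted p there were 0 members without either Mettl3 male library and 2 without yw male library 2. VhaAC39-2 and ATPsynCF6 lie 0.875 and 0.678 Mb from Mettl3 on chromosome arm 3R, while SdhD, 0.273 Mb away, had a log2 fold change of -0.16. In the 1 Mb on either side of Mettl3, 5.67% of 282 tested genes were lower at the adjusted p. Within 0.5 Mb it was 8.5% of 153, with 1 member among them, and within 0.25 Mb 12.9% of 85, with 0 members. The part of the deficiency in these values was not tested.

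The other genes called lower in Mettl3 males had adjusted p between 0.072 and 0.185 in limma. SdhC, a membrane anchor of complex II, was at 156 and 62.1 FPKM in Mettl3 males, against 221 and 279 FPKM in yw males. ND-42 of complex I was at 76.2 and 73.7 FPKM in Mettl3 males, against 122 and 204 FPKM in yw males, and ND-39 was at 82.5 and 81.8 FPKM in Mettl3 males, against 129 and 228 FPKM in yw males. ATPsynO, of the stalk of ATP synthase, was at 304 and 316 FPKM in Mettl3 males, against 476 and 875 FPKM in yw males. The groups did not overlap in any of them, and the yw male libraries differed widely. The uncertain mt:ATPase8 was at 29.0 and 32.3 FPKM in Mettl3 males, against 186 and 885 FPKM in yw males, and mt:ND4 was at 586 and 615 FPKM in Mettl3 males, against 945 and 1938 FPKM in yw males. Among highly expressed members that were not called, ATPsynbeta, the catalytic subunit of complex V, was at 1100 and 1099 FPKM in Mettl3 males, against 1634 and 2280 FPKM in yw males. The paralog-to-main ratio of COX4L to COX4 was 84.9% in Mettl3 males and 32.6% in yw males, with COX4 at 184 and 188 FPKM in Mettl3 males, against 309 and 618 FPKM in yw males.

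The number of calls differed with the libraries used. Without yw male library 1 there were 17 members called, and without yw male library 2 there were 2, of which 1 was higher and 1 lower. Without Mettl3 male library 1 there were 3 and without library 2 there were 2. Against yw male library 1 alone, the main genes had a median difference of -0.29 and -0.30 for the Mettl3 male libraries, with 78 and 80 of 88 lower. Against yw male library 2 alone, it was -0.56 and -0.57, with 82 and 81 lower. The flight muscle markers were lower too. All 8 were below both yw male libraries in Mettl3 males (29.2% of all tested genes), with 0 of 8 listed at 0. Their sum was 11080 and 10980 FPKM in Mettl3 males, against 16640 and 19690 FPKM in yw males. In Mettl14 males 6 of the 8 were below both yw male libraries (13% of all tested genes), with sums of 12950 and 14440 FPKM. In Hakai males 4 of the 8 were below and 0 above both yw male libraries, with sums of 16320 and 17580 FPKM. The share of all tested genes was not counted for Hakai males. Of the 6 eye markers, 4 were below and 0 above in Mettl3 males (29.2% and 36.3% of all tested genes). Other markers went other ways there. Of the 10 accessory gland markers, 7 were above and 0 below, and of the 10 testis markers, 3 were above and 4 below. Of the 8 gut markers, 3 were above and 4 below, and of the 5 fat body markers, 3 were above and 1 below. Their part in the result was not tested.

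**Figure D3:**
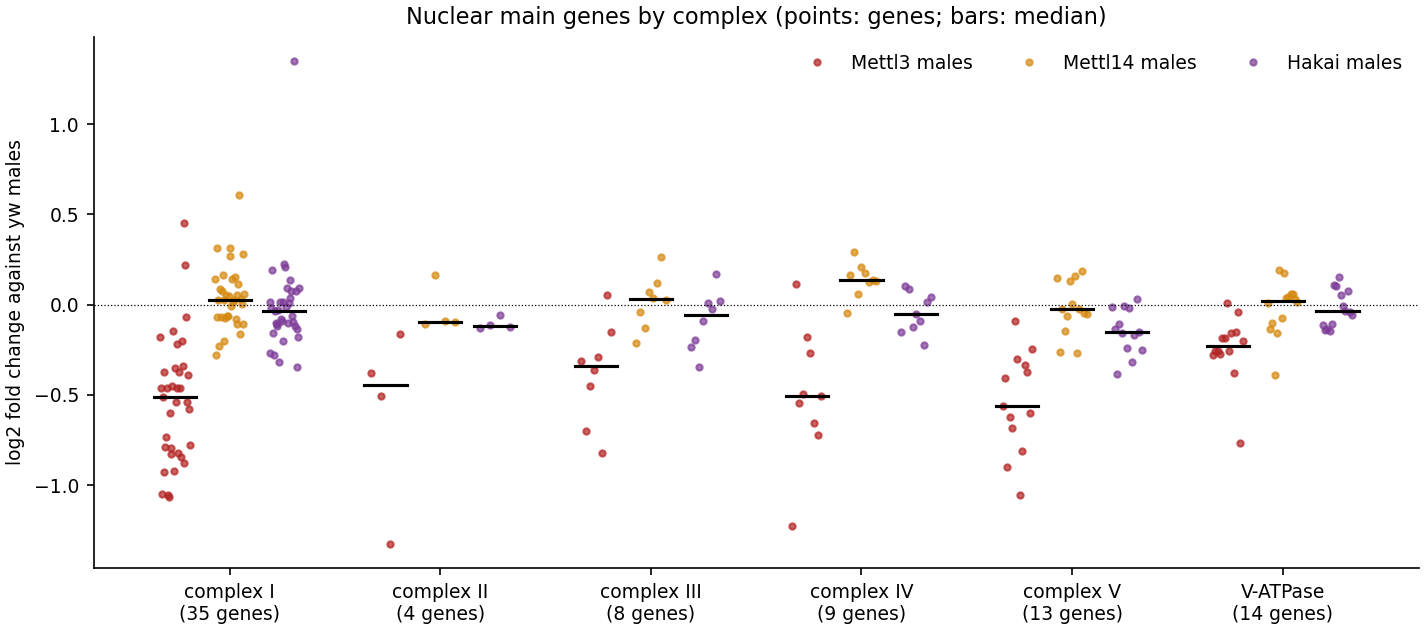
Log2 fold change against yw males of each main nuclear gene (point) and the median (bar) by complex, for Mettl3, Mettl14 and Hakai males. The medians of Mettl3 males lie between -0.23 and -0.56 in the 6 complexes shown, and the Hakai point at 1.35 in complex I is ND-B8.

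In Mettl14 males the main nuclear genes showed no common direction. At the adjusted p, 5 of the 42 paralogs tested were higher and 1 lower (6.58% and 2.48% of all tested genes). Both Mettl14 male libraries were above both yw male libraries in 8 of the 88 main genes (36.7% of all tested genes) and below both in 5 (13% of all tested genes). Of the 143 members, 1 was called lower (1.23% of all tested genes) and 0 higher (3.4% of all tested genes), with 11 higher at an unadjusted p under 0.05 (18% of all tested genes). The 1 called was mt:ND4, at 448 and 851 FPKM in Mettl14 males, against 945 and 1938 FPKM in yw males. The groups did not overlap, but limma's adjusted p was 0.161. Against yw male library 1 alone, the main genes had a median difference of -0.02 for Mettl14 male library 1 and 0.33 for library 2, and against yw male library 2 alone it was -0.31 and 0.10. Without Mettl14 male library 1, Mettl3 male library 1 or Mettl3 male library 2 there were 0 members called, and without Mettl14 male library 2 or yw male library 1 there were 3. Without yw male library 2 there was 1, and it was higher. The members' median log2 fold change was 0.05 beside 0.11 for all tested genes, and with equal medians -0.08 beside -0.02.

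At the adjusted p, 5 members were higher in Mettl14 males (6.58% of all tested genes) and 1 lower (2.48% of all tested genes), and all 6 were paralogs. ATPsynGL, a copy of subunit g of ATP synthase, was at 49.3 and 52.5 FPKM in Mettl14 males, against 34.6 and 26.4 FPKM in yw males (log2 fold change 0.73 ± 0.14, limma adjusted p = 0.023). It lies 0.562 Mb from Mettl14 on chromosome arm 2L. In the 1 Mb on either side of Mettl14, 10.6% of 245 tested genes were higher at the adjusted p and 1.63% lower. The part of this neighbourhood in the value of ATPsynGL was not tested. ND-51L1, a copy of the flavoprotein subunit of complex I, was at 19.9 and 18.9 FPKM in Mettl14 males, against 12.7 and 12.8 FPKM in yw males (log2 fold change 0.57 ± 0.08, limma adjusted p = 0.0087). ATPsynepsilonL, Vha16-3 and Vha16-5 rose by 0.58, 0.62 and 0.64 on the log2 scale. Vha100-4 was at 1.36 and 1.95 FPKM in Mettl14 males, against 3.55 and 4.64 FPKM in yw males (log2 fold change -0.94 ± 0.18, limma adjusted p = 0.024). The groups did not overlap for any of the 6. With equal medians, 3 members were higher and 1 lower. In place of 6 members past the adjusted p there were 0 in the fit of the 4 libraries alone and 0 without Mettl14 male library 1, 2 without Mettl14 male library 2, 1 without either Mettl3 male library and 3 without either yw male library. In the 42 paralogs tested, the median was 0.15 beside 0.11 for all tested genes, and with equal medians 0.02 beside -0.02. The 10 testis markers summed to 3410 and 3161 FPKM in Mettl14 males, against 2886 and 3168 FPKM in yw males. Of these, 5 of 10 were above both yw male libraries (36.7% of all tested genes) and 0 below (13% of all tested genes). Of the other markers in Mettl14 males, 7 of 10 of the accessory gland and 6 of 8 of the gut were above and 0 below, and 6 of 8 of flight muscle were below and 0 above. Their part in the result was not tested.

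In Hakai males 1 member was called higher (2.47% of all tested genes) and 0 lower (1.72% of all tested genes), with 6 lower at an unadjusted p under 0.05 (9.18% of all tested genes). ND-B8, an accessory subunit of complex I and the main gene of complex I with the lowest level in yw males, was at 16.5 and 16.4 FPKM in Hakai males, against 7.19 and 4.74 FPKM in yw males. The groups did not overlap, and the log2 fold change was 1.35 ± 0.21 (limma adjusted p = 0.012). It kept its call in all 15 alternative settings. In Mettl3 males ND-B8 was at 8.81 and 7.99 FPKM, and in Mettl14 males it was at 11.2 and 7.90 FPKM. Both of these groups also lay above both yw male libraries, but ND-B8 was not called in either. At the adjusted p, ND-51L1 was also higher, at 17.23 and 17.59 FPKM in Hakai males, against 12.7 and 12.8 FPKM in yw males (log2 fold change 0.42 ± 0.08, limma adjusted p = 0.027), and 0 were lower, with 4.95% and 3.75% of all tested genes in these directions. Without Hakai male library 1 or yw male library 2 there were 2 members called, and without yw male library 1 there were 3 (1 higher and 2 lower). Past the adjusted p there were 0 without either Hakai male library. With equal medians 2 members were higher and 1 lower at the adjusted p. The members' median was -0.05 beside 0.03 for all tested genes. Against yw male library 1 the main genes had a median difference of -0.16 for Hakai male library 1 and 0.30 for library 2, and against yw male library 2 it was -0.47 and 0.03. The flight muscle markers summed to 16320 and 17580 FPKM in Hakai males, with 4 of 8 below both yw male libraries and 0 above.

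The mutants were then set against each other in the same fit. In Mettl3 males against Mettl14 males, 11 of the 143 members were lower at the adjusted p (6.51% of all tested genes) and 0 higher (4.08%). At an unadjusted limma p under 0.05, 44 were lower (19.6% of all tested genes) and 2 higher (10.2%). In Hakai males against Mettl3 males, 5 were higher (4.69% of all tested genes) and 1 lower (6.83%). In Hakai males against Mettl14 males, 2 were lower (4.56% of all tested genes) and 0 higher (1.93%). At an unadjusted limma p under 0.05, 6 were lower (13.1% of all tested genes) and 1 higher (5.73%). ATPsynGL was at 19.4 and 20.5 FPKM in Hakai males, against 49.3 and 52.5 FPKM in Mettl14 males (log2 fold change -1.31 ± 0.14, limma adjusted p = 0.0038). Vha100-5 was at 5.99 and 5.32 FPKM in Mettl3 males, against 11.8 and 15.4 FPKM in Mettl14 males (log2 fold change -1.12 ± 0.18, limma adjusted p = 0.014). ND-15 was at 180 and 242 FPKM in Hakai males, against 107 and 96.2 FPKM in Mettl3 males (log2 fold change 1.03 ± 0.19, limma adjusted p = 0.022). The groups did not overlap in any of these 3 pairs.

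**Figure D4:**
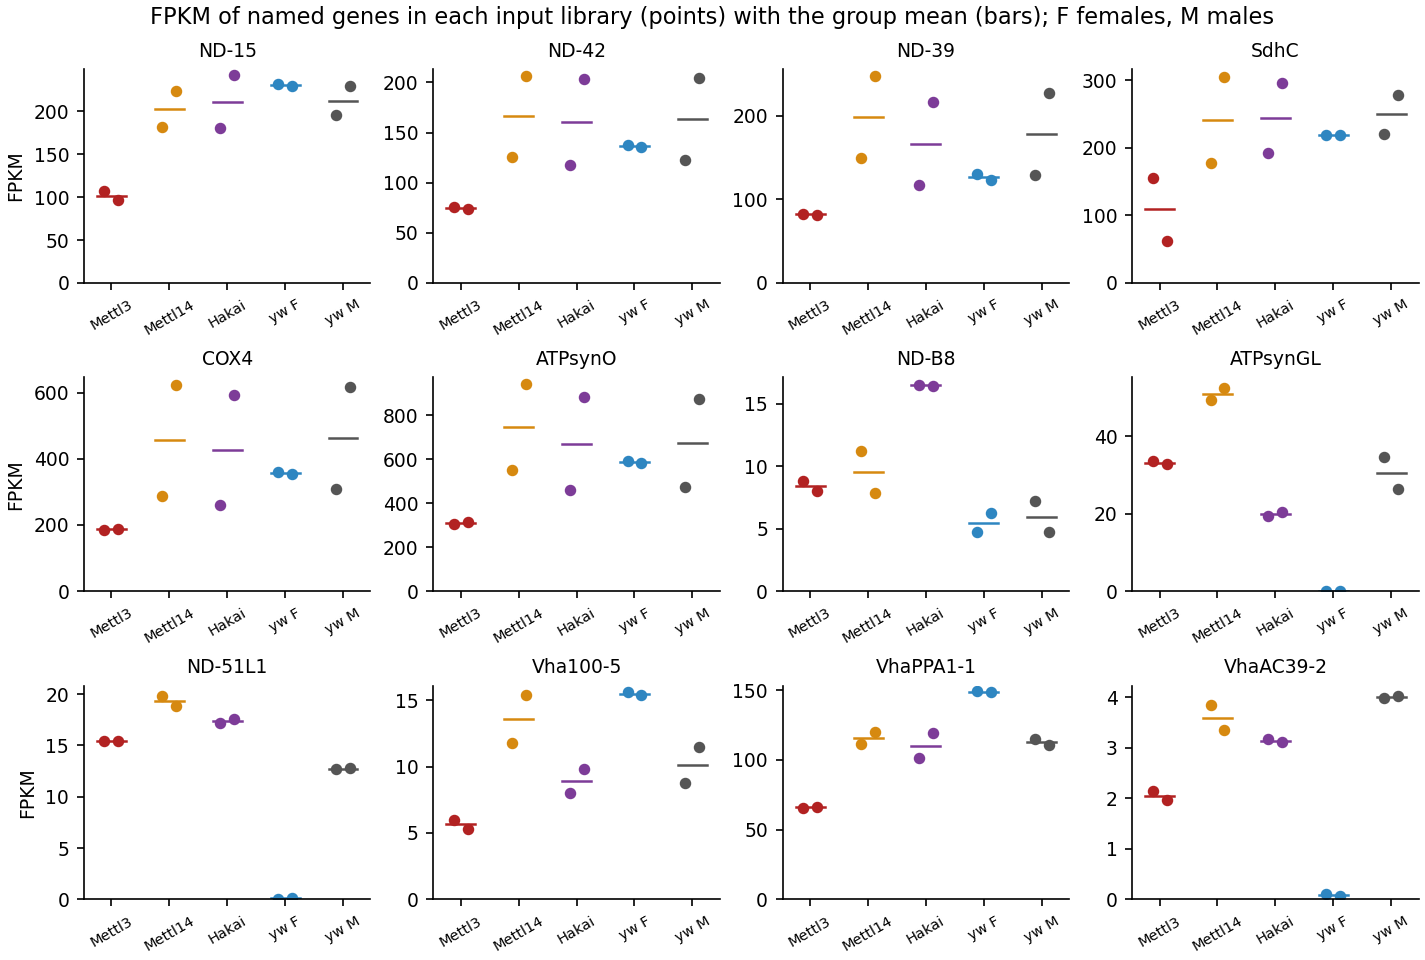
FPKM in each input library (points) and the group mean (bars) of 12 named members in Mettl3 males, Mettl14 males, Hakai males, yw females and yw males, each axis starting at 0. In ND-42, ND-39, COX4 and ATPsynO the 2 libraries of Mettl14, Hakai and yw males lie far apart while those of Mettl3 males coincide. ND-B8 is highest in Hakai males, at 16.5 and 16.4 FPKM, and also lies above both yw male libraries in Mettl3 and Mettl14 males.

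Neighbouring pathways were counted from fixed lists. Of 15 genes of the tricarboxylic acid cycle, which feeds electrons to complexes I and II, 3 were lower and 0 higher at the adjusted p in Mettl3 males (3.01% and 5.77% of all tested genes), with a median log2 fold change of -0.28. They were Acon (aconitase) at -0.81, CG5028 at -0.76 and l(1)G0156 at -0.65, both listed as subunits of isocitrate dehydrogenase. Of 13 glycolysis genes, 0 passed the adjusted p in Mettl3 males, with a median of 0.09, and 4 had an unadjusted limma p under 0.05. These 4 were split, with Gapdh1 at -0.89, Pfk at -0.69 and Pglym78 at -0.69, and Ldh at 0.39. The list thus held lower and higher genes on either side of its median. Both lists had 0 genes past the adjusted p in Mettl14 and Hakai males. In yw females 4 of the 15 cycle genes were called lower, or 26.7% beside 22.9% of all tested genes. They were CG4706, Fum2, Fum3 and Fum4, with log2 fold changes between -5.34 and -3.39. As for the paralogs above, the direction was fixed for any of them that reached the filter only through yw males. Another list held 12 genes for mitochondrial DNA maintenance and expression, with the nuclear transcription regulators srl, ewg and Ets97D among them. Of the 12, 10 were higher and 0 lower in yw females at the adjusted p (27.4% and 31.4% of all tested genes), with a median of 0.73. Among them mtSSB, which binds single-stranded mitochondrial DNA, rose by 2.89, srl, the fly PGC-1 homolog, by 2.84 and mtDNA-helicase by 2.07 on the log2 scale. The 12 ovary and egg markers summed to 1707 and 1616 FPKM in yw females, against 2.55 and 3.46 FPKM in yw males, and their part in the result was not tested.

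The m6A peaks of the members came from 5 deposited lists, 1 for each group with its replicates pooled, so a peak has no replicate check and no test. Fold enrichment is the ratio of immunoprecipitated over input signal. The lists held 151 member peaks in 104 of the 144 genes in Mettl3 males, 101 in 76 genes in Mettl14 males, 108 in 80 genes in Hakai males, 113 in 79 genes in yw females and 117 in 85 genes in yw males. The share of all genes in the table with a peak was 63.5%, 58.3%, 58.6%, 53.5% and 60% in the same lists, beside 72.2%, 52.8%, 55.6%, 54.9% and 59.0% of the members. No member peak lay on the mitochondrial genome. In yw males the peaks fell in 59 main genes and 26 paralogs.

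Member peaks lay mostly in the 3′ UTR. In yw males this held for 102 of 117 peaks, or 87.2% (95% Wilson interval 79.9% to 92.1%, counting error only), beside 56.6% of all yw male peaks. The 5′ UTR held 9, or 7.69% (4.10% to 14%), beside 22.9% of all yw male peaks. The order was the same in the other lists, with 82.8% of member peaks in the 3′ UTR in Mettl3 males (61.1% of all its peaks), 86.1% in Mettl14 males (63.4%), 88% in Hakai males (61.7%) and 77.9% in yw females (48.1%). Peaks were also weaker in main genes than in paralogs. In yw males the median fold enrichment was 2.34 for main genes, 4.18 for paralogs and 3.06 for all peaks. The strongest were at ATPsyndelta (X, 10215920 to 10216067) and Vha16-5 (2L, 10736319 to 10736551), both at 13, in the coordinates of the deposited lists. The first of them also overlaps another gene, CG2962, as 47 of the 117 member peaks overlap at least 1 other gene of the table. The Vha16-5 peak overlaps no other gene, had a partner of 2.84 in Mettl3 males and had none in Mettl14 males, Hakai males or yw females. The peak of ATPsynO (3R, 15266684 to 15268140) had a fold enrichment of 6.80 in Mettl3 males, 9.33 in Mettl14 males, 12.6 in Hakai males, 10.9 in yw females and 10.9 in yw males.

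Most yw male member peaks had a partner in each mutant. A peak was counted as absent where no peak of the other list overlapped it by more than 50% of the smaller peak. Of 117, 15 were absent from Mettl3 males (12.8%, beside 23.3% of all yw male peaks), 30 from Mettl14 males (25.6%, beside 28.6%) and 24 from Hakai males (20.5%, beside 24.9%). In the 3′ UTR, 8, 23 and 18 of 102 were absent in these lists, or 7.84%, 22.5% and 17.6%, beside 9.24%, 13.2% and 13.3% of all 3′ UTR peaks. In the 5′ UTR, 3 of 9 were absent from each mutant, or 33.3%, beside 46.3%, 56.1% and 38.2% of all 5′ UTR peaks. All 3 lists lacked 10 of the 117, or 8.55% beside 14.3% of all yw male peaks, and all 10 were in main genes. Among peaks over no other gene, 7, 17 and 14 of 70 were absent (10%, 24.3% and 20%, beside 27.4%, 32.5% and 28.8% of all such peaks). The Mettl3 male list also held 49 member peaks without a yw male partner (32.5%, beside 25.3% of all its peaks), against 15 in Mettl14 males (14.9%, beside 21.4%) and 14 in Hakai males (13%, beside 17.6%).

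The 5′ UTR peaks absent from all 3 mutants were in ND-15, ND-39 and Vha16-1. The ND-15 peak (2L, 114756 to 114935) had a fold enrichment of 5.92 in yw males and overlapped no other gene, and its partner in yw females had 1.57. The ND-39 peak (3L, 20488263 to 20493451, in 2 blocks) had a fold enrichment of 2.41 in yw males and 6.78 in yw females and also overlaps ZnT77C. The Vha16-1 peak (2R, 6632301 to 6633030) had 2.14 in yw males and 1.51 in yw females. The RNA of these genes did not move together in the mutants. ND-15 and ND-39 were called lower in Mettl3 males, as given above, and Vha16-1, the main proteolipid of the vacuolar ATPase, was at 397 and 418 FPKM in Mettl3 males, 392 and 362 FPKM in Mettl14 males, 474 and 418 FPKM in Hakai males and 607 and 400 FPKM in yw males. ND-15 spans 41305 bases and contains other genes, and the lists give it 1 peak (138384 to 138533) on 2 rows.

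The 6 other 5′ UTR peaks kept a partner in every mutant. The ND-B8 peak (2L, 4454626 to 4454888) had a fold enrichment of 2.26 in Mettl3 males, 2.20 in Mettl14 males, 4.55 in Hakai males, 1.43 in yw females and 2.39 in yw males. Those of Vha100-3, CG15719 and ND-51L2 with the highest enrichment, at 8.91, 6.99 and 6.02 in yw males, are spliced peaks of 76805, 42415 and 16096 bases that reach over other genes, so their assignment to these paralogs is uncertain. In the 3′ UTR, the peak of ATPsynGL had a fold enrichment of 1.57 in Mettl3 males, 1.31 in Hakai males and 1.9 in yw males, and Mettl14 males had none.

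Between the sexes, many paralog peaks of yw males had no female partner. Of the 34 yw male peaks in paralogs, 20 were absent from yw females, or 58.8%, beside 17 of 83 in main genes, or 20.5%, and 27.3% of all yw male peaks. COX4L, CG6629 and Vha68-3, with fold enrichments of 4.91, 5.15 and 5.80 in yw males, had no female partner, and all 3 had partners in each mutant. The RNA of these 3 paralogs was at 1.07 FPKM or less in yw females. The female list held peaks for 13 paralogs, of which Vha68-1, VhaM9.7-a, Vha36-3, Vha100-4 and Vha100-5 were at 6.76 FPKM or more in both yw female libraries. The other 8 were at 1.52 FPKM or less, and CG15719 was listed at 0.

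**Figure D5:**
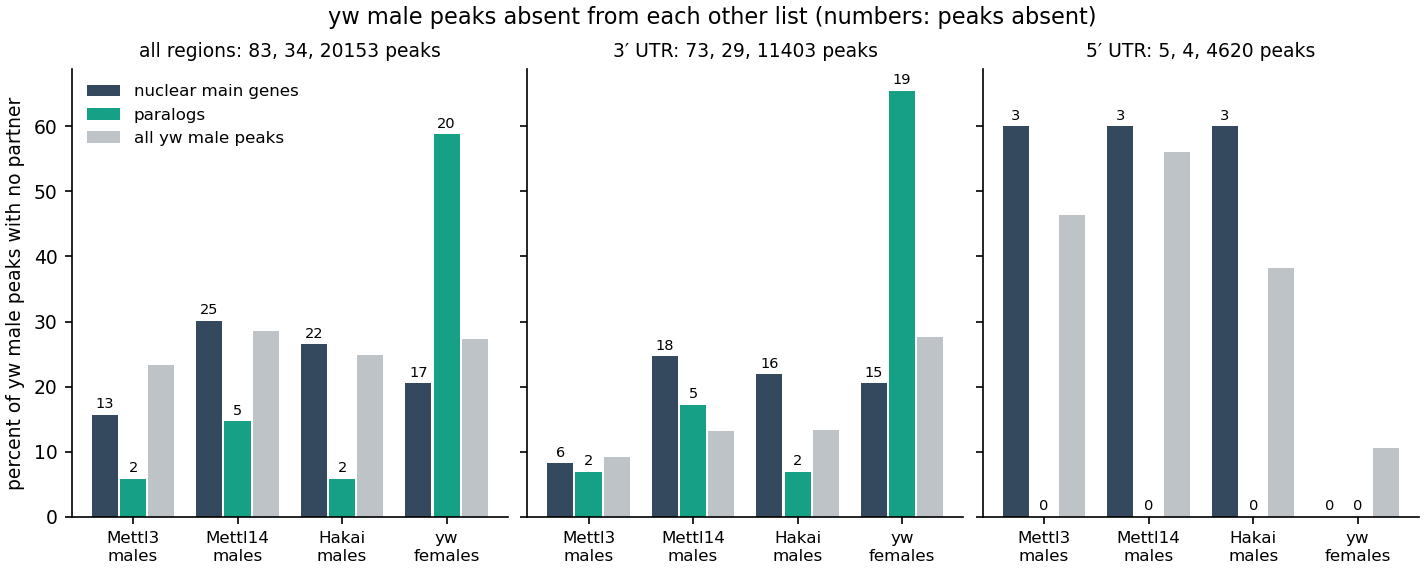
Percent of yw male peaks with no partner in the list of Mettl3 males, Mettl14 males, Hakai males or yw females, for main nuclear genes, paralogs and all yw male peaks, over all regions, the 3′ UTR and the 5′ UTR; the panel titles give the peaks in these 3 sets and the numbers over the bars the member peaks absent. Paralog peaks were absent most often from yw females, 20 of 34, and at the 5′ UTR 3 of 5 main gene peaks were absent from each mutant and 0 from yw females.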

How the data were processed

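Members and lists were chosen with earlier results of these data known. The authors trimmed reads with fastp 0.19.4, mapped them with HISAT2 2.0.4 and made the deposited FPKM values of the input libraries with StringTie 1.3.4. The deposited fold enrichment, a ratio of immunoprecipitated over input signal, and the FDR, given as a log10 value, came from exomePeak 1.9.1 as run by the authors on the pooled replicates of a group, with regions and genes from ChIPseeker 1.18.0 and Ensembl 96. The sources used here give no read totals, so the depth of a library is unknown. The authors tested expression with edgeR, which needs counts. Here log2(FPKM + 1) was tested with limma 3.58.1 in R 4.3.3 (lmFit, eBayes with trend), keeping genes whose mean FPKM reached 1, in 1 fit of the 8 male input libraries (13079 genes) and 1 of the 4 yw input libraries (12778 genes). A fold change on this scale understates the change of low genes. The contrasts of Mettl3 males and of yw females with yw males were checked on simulated data. Noise there was independent for each library, and the check was that known changes were recovered. The contrasts of Mettl14 males, of Hakai males and between mutants were not simulated. Tables were joined in Python 3.11.15 with pandas 2.3.3 and numpy 2.4.6.

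Main genes and paralogs were separated by hand from symbols and KEGG ortholog entries. Named are the members called in a comparison (all up to 16, otherwise the 8 highest and 8 lowest), the 2 most abundant members of each complex in yw males, mitochondrial members, paralog pairs, up to 8 members with a 5′ UTR peak absent from all 3 mutants, and the mutated genes. Other members past the adjusted p were named after their values were seen. Settings varied were the pseudocount (0.1), the filter (none, or a mean of 5 FPKM), equal library medians, limma without trend, a replicate block, the 4 libraries of a comparison alone and leaving out each library. For peaks they were an overlap of any size, an overlap covering 50% of each peak, an FDR of at most 0.01 and a fold enrichment of at least 5. Intervals are Wilson 95% intervals.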

Additional observations from a re-analysis of the deposited data

Results flagged for a closer look

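Differences between mutants that passed an adjusted p under 0.05 and 2-fold in limma are listed here, with the mutants compared directly in 1 fit. ATPsynGL differed between Hakai males and Mettl14 males by a log2 fold change of -1.31. Vha100-5 differed between Mettl3 males and Mettl14 males by -1.12. ND-15 differed between Hakai males and Mettl3 males by 1.03. In each case both libraries of a group lay on the same side of both libraries of the other group.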

How the results depend on the processing

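The members called stayed within 1.5 times their number in all comparisons under the filters, limma without trend and, apart from Mettl14 males, the other settings. In Mettl14 males, with 1 member called, there were 2 with a pseudocount of 0.1, 2 with equal medians, 2 with a replicate block and 0 in the fit of 4 libraries alone. Leaving out libraries gave 2 to 17 members called in Mettl3 males, 0 to 3 in Mettl14 males, 1 to 3 in Hakai males and 35 to 39 in yw females. The members' median then ranged from -0.36 to -0.17 in Mettl3 males, -0.10 to 0.22 in Mettl14 males, -0.26 to 0.10 in Hakai males and -0.20 to 0.19 in yw females, where equal medians gave 0.31. Of 287 recomputed values of the 25 called genes that the text names by rule, 262 kept direction and call, 25 lost the call and 0 reversed.

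The replicate numbers were not taken as pairs. Differences between libraries 1 and 2 correlated over genes with r = 0.667, 0.50 and 0.465 among Mettl14, Hakai and yw males, but with 0.0147 to 0.0632 between these and Mettl3 males. With a replicate block, 10 members were called lower in Mettl3 males in place of 7, and 29 in place of 4 were lower at the adjusted p, with 2 higher. Past the adjusted p it gave 8 members in place of 6 in Mettl14 males, with mt:ND4 among them (limma adjusted p = 0.038), and 5 in place of 2 in Hakai males. In yw females 36 were called in place of 35, and 9 in place of 17 were higher at the adjusted p.

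Absent yw male peaks numbered 34, 41 and 40 in Mettl3, Mettl14 and Hakai males when at least 50% of both peaks had to overlap, 9, 23 and 18 among peaks with an FDR of at most 0.01, and 5, 6 and 4 among those with a fold enrichment of at least 5. Genes with a peak of at least 5-fold enrichment numbered 13 in Mettl3 males, 12 in Mettl14 males, 11 in Hakai males, 13 in yw females and 15 in yw males. With 2 libraries a group and no depth, small changes could not be resolved.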
